A study of Mus musculus with 47 samples.

Results

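White adipose tissue of tumour-bearing mice given a control antibody was compared with that of mice without a tumour in 10 of the 47 libraries of the series, 5 per group. The tumours were HT1080, a human fibrosarcoma cell line, and tissue was taken on day 21 after inoculation. The IgG1 group bore the tumours and received the control antibody IgG1 at 3 mg/kg each week from day 0. The group called NTB bore no tumour, and the labels give it no antibody, so the tumour and the control antibody cannot be told apart in this comparison. All mice had the C57Bl6 background. The labels name neither age, sex nor fat depot, do not say how these mice accepted human cells, and do not state whether 1 library is 1 mouse, so the p-values measure the spread between these samples. A further 5 libraries came from tumour-bearing mice given 3P10, an antibody against the GDF15 receptor GFRAL, at the same dose. They entered the same model, and their levels are given beside the others as values. Every gene measured in these libraries was a candidate: 24391 genes were in the table, and 14402 passed the low-count filter and were tested.

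White fat stores triglyceride and releases it as fatty acids when food is scarce. Catecholamines and glucocorticoids favour release, insulin favours storage, and fat cells report the size of the store through the hormone leptin. Around the fat cells lies a stroma of fibroblast-like precursors, vessels and macrophages, which makes the collagen-rich matrix. In tumour cachexia, white fat shrinks, and circulating GDF15, which acts through GFRAL in the hindbrain, is one of the signals that lower food intake.

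The libraries held 22.4 to 34.5 M counts in the NTB group and 25.1 to 80.7 M in the IgG1 group, where M stands for 1000 × 1000 counts. IgG1 replicate 4 was the deepest at 80.7 M. Its sample name ends in S112, where those of the other white fat libraries run from S2 to S15. Whether it was sequenced apart from them is not stated and was not tested. Levels are given as CPM, the counts of a gene per M counts of its library after scaling. CPM is not scaled to gene length, so levels are compared between libraries and not between genes. IgG1 replicates 2 and 4 stood apart from the other 13 white fat libraries on the first principal component, which held 33.7% of the variance. Their scores were 76.7 and 93.2, IgG1 replicate 5 followed at 30.0, and the other 12 libraries lay at or below -2.03. The same 2 libraries were high in the thermogenic gene Ucp1 and in epithelial keratins, as given below. Values without them, from a fit of 3 IgG1 against 5 NTB libraries, are therefore given for leading genes and lists and wherever the call of a named gene ended and its change moved by over 1.5 times. The fat cell hormone Adipoq lay between 1824 and 4363 CPM in all 10 libraries, and the coat protein gene Plin1 between 780 and 2031 CPM, so all 10 carried these 2 fat cell markers. IgG1 replicates 2 and 4 were the lowest of the 10 in both. Not every white fat marker was kept: Lep was 155 and 60.2 CPM in these 2 libraries, against 1203 to 1827 CPM in the NTB group.

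Tumour with IgG1 went with a broad change in white fat. Of the 14402 genes, 1245 were called at an adjusted p under 0.05 (8.64%), 589 of them higher in the IgG1 group (4.09%) and 656 lower (4.55%). The number called in each gene list below is to be read beside the 8.64% of all genes. Where all calls of a list went in the same direction, the 4.09% called higher or the 4.55% called lower is the share for that direction. Some genes are in more than 1 list, such as Per1, Acot2, Glul and Lcn2, so the lists are not independent of each other. At an unadjusted p under 0.05 there were 4198 genes. A change of at least 2-fold was seen in 484 called genes, of which 153 were higher and 331 lower, so the larger changes were mostly falls. The groups did not overlap in 363 of the genes called higher and in 442 of those called lower. Across all tested genes, every IgG1 library lay above every NTB library for 561 (3.9%) and below for 713 (4.95%). In 1191 of the 1245 called genes, 5 of 5 IgG1 libraries lay on the called side of the NTB mean, a description, since the genes were called on these libraries.

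How many genes were called depended on single libraries of both groups. The count fell to 344, 436 and 540 without NTB replicates 1, 2 and 3, and to 439, 463 and 510 without IgG1 replicates 2, 4 and 5. It grew to 2212 and 2354 without IgG1 replicates 1 and 3. Of the 1245 calls, 307 held whichever 1 library was left out, as did 46 of the 94 called genes named here. Without both IgG1 replicates 2 and 4, 93 genes were called, 49 higher (0.335% of 14620 tested) and 44 lower (0.301%), and 83 of them were among the 1245. Of the 94, 21 were called without both, namely Acot2, Chac1, Col1a1, Col1a2, Col6a3, Fbn1, Fbxo31, Fn1, Irf4, Kit, Mycl, Ngfr, Per1, Pkp1, Pla2g2d, Pla2g2e, Retsat, Slc27a1, Spon2, Thy1 and Usp2. The calls of the other 73 ended, at an adjusted p of 0.0558 to 0.486, and the change of 11 of them moved by over 1.5 times. Of the 1245 genes, 1241 kept their sign. They were called with libraries that this fit shares, so keeping the sign was favoured by the choice of genes and is a description. The median log2 fold change of the genes called lower was -1.005 with all libraries and -0.81 without the 2. For the genes called higher it was 0.64 and 0.48.

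**Figure D1:**
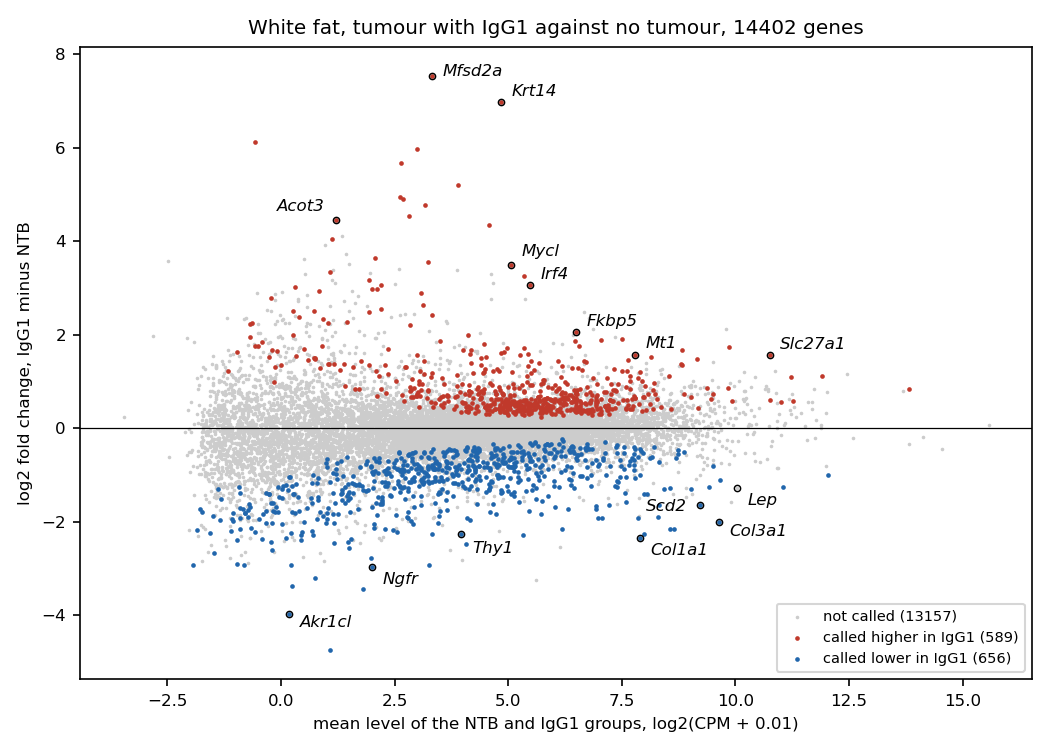
Each point is 1 of the 14402 tested genes, with the mean level of the NTB and IgG1 groups on the x axis as log2(CPM + 0.01) and the log2 fold change, IgG1 minus NTB, on the y axis. Red points are the 589 genes called higher and blue points the 656 called lower. The 15 named genes are circled, among them the uncalled Lep.

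Mycl, a MYC-family transcription factor gene, had 1 of the largest rises. It stood at 3.02, 6.47, 5.11, 9.18 and 3.67 CPM in NTB replicates 1 to 5 and at 36.4, 77.2, 89.6, 67.3 and 38.4 CPM in the IgG1 libraries. The lowest IgG1 library lay well above the highest NTB library, and the 2 libraries that stood apart were not the extremes. The log2 fold change was 3.50 (SE 0.44, adjusted p = 0.00231), and 3.32 without them (adjusted p = 0.0202). The 3P10 libraries lay between 2.91 and 14.1 CPM. Irf4 encodes a transcription factor that is induced by fasting in fat cells and promotes lipolysis in mice. It lay between 8.46 and 11.9 CPM in the NTB libraries and at 16.4, 90.4, 93.5, 178 and 19.6 CPM in the IgG1 libraries. All IgG1 libraries were higher, 3 of them far more than the other 2 (log2 fold change 3.06, SE 0.51, adjusted p = 0.00658). It remained called without replicates 2 and 4, at 2.17 (adjusted p = 0.0427).

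Mfsd2a, which encodes a carrier of lysophospholipids across membranes, was close to absent without a tumour, with 14 reads over the 5 NTB libraries. Its level in the IgG1 libraries was 0.478, 25.8, 0.969, 71.3 and 0.871 CPM. Every IgG1 library was above every NTB library, but replicates 2 and 4 were far above the other 3. The fitted log2 fold change of 7.54 (SE 1.52, adjusted p = 0.0118) dropped to 2.86 without them (adjusted p = 0.119), and with so few NTB reads its size depends on the prior count of the fit. Pkp1, a desmosome plaque gene, rose by 2.98 on the log2 scale (SE 0.61, adjusted p = 0.0124) and was called without the 2 libraries at 2.38 (adjusted p = 0.0449). Pla2g2d, a secreted phospholipase, stood at 2.02 to 3.08 CPM in the NTB libraries and at 4.82, 11.8, 17.5, 9.62 and 14.8 CPM in the IgG1 libraries. Its fold change was as large without replicates 2 and 4 (2.28, adjusted p = 0.0417) as with them (2.20, SE 0.38, adjusted p = 0.00724).

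Among the falls, Ngfr had the smallest adjusted p of the genes named here. It encodes the low-affinity neurotrophin receptor, made by nerve-associated and stromal cells. Its level was 6.97, 8.21, 5.92, 6.68 and 7.84 CPM in the NTB libraries and 0.797, 0.644, 0.844, 1.46 and 0.681 CPM in the IgG1 libraries. The groups were well separated with little spread in either, and the change was -2.97 (SE 0.35, adjusted p = 0.00162), or -3.19 without replicates 2 and 4 (adjusted p = 0.0202). The 3P10 libraries held 3.06 to 9.43 CPM. Pla2g2e, another secreted phospholipase, fell from 2.94 to 11.6 CPM across the NTB libraries to 0.276 to 1.16 CPM (-3.44, SE 0.52, adjusted p = 0.00511). Spon2, a matrix protein gene, went from 11.03 to 29.97 CPM to 0.526 to 3.87 CPM (-2.93, SE 0.47, adjusted p = 0.00588). Both were also called without the 2 libraries, at -3.13 and -2.39. The cytokine gene Lif was lower as well, with 283 reads in the NTB libraries and 50 in the IgG1 libraries (-2.92, SE 0.57, adjusted p = 0.0105). The protease gene Adamts16 and the secreted protein gene Pi15 fell by 3.37 and 2.76 on the log2 scale, with groups that did not overlap. Akr1cl, an aldo-keto reductase, fell by 3.97 and had 20 reads in the IgG1 libraries against 257, and its NTB levels ranged from 0.526 to 4.44 CPM.

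**Figure D2:**
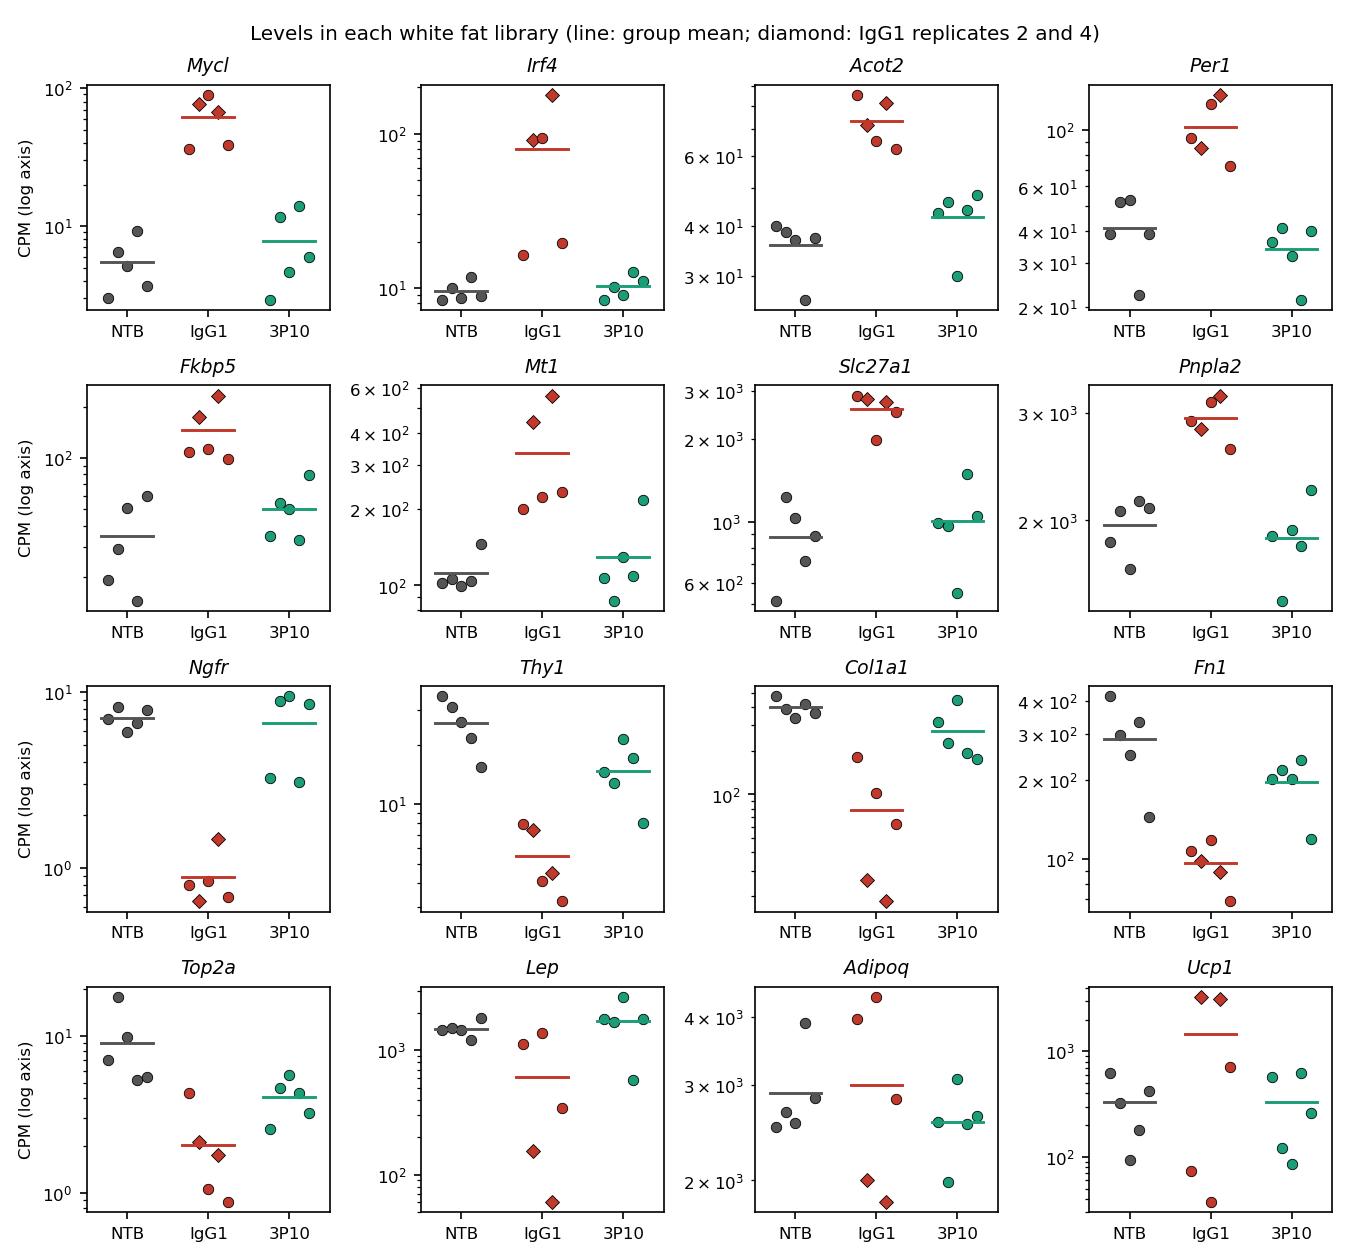
Levels of 16 genes in each of the 15 white fat libraries, in CPM on a log axis, grouped by NTB, IgG1 and 3P10. Points are libraries, lines are group means, and diamonds are IgG1 replicates 2 and 4, which hold the highest Ucp1 (3286 and 3143 CPM) and the lowest Col1a1 and Lep.

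Genes of the circadian clock moved in the IgG1 group. Of 20 tested, 8 rose and 1 fell (45.0% called, against 8.64% of all genes), and the median log2 fold change was 0.83, where that of all genes was -0.01. Without IgG1 replicates 2 and 4 the median was 0.87, and 2 genes were still called, Per1 and Usp2. Per1 encodes a repressor of the clock loop that also responds to glucocorticoids. It was measured at 39.0, 52.1, 53.0, 22.3 and 39.1 CPM in the NTB libraries and at 93.7, 85.4, 127, 138 and 72.2 CPM in the IgG1 libraries. No IgG1 library reached down to the NTB range, and the change was 1.33 (SE 0.24, adjusted p = 0.00880). Usp2, a deubiquitinase gene with a daily rhythm, rose by 1.61 (SE 0.27, adjusted p = 0.00658), with 1 high library, IgG1 replicate 4, at 83.5 CPM where the other IgG1 libraries held 24.9 to 39.6 CPM. Ciart, a repressor, rose by 2.41 (SE 0.59, adjusted p = 0.0260) and varied widely among the NTB libraries, from 0.603 to 8.94 CPM. Its call ended without NTB replicate 1 or 2 or IgG1 replicate 4 or 5 (adjusted p at most 0.0648). Others that rose were Per2, Cry1, Tef and Hlf, of which none was called without replicates 2 and 4. The gene that fell was Clock, which encodes an activating subunit, from 63.9 to 96.2 CPM to 44.0 to 58.2 CPM (-0.63, SE 0.11, adjusted p = 0.00854, and -0.63 without the 2, adjusted p = 0.0558). Its partner Arntl was at -2.15 and did not pass (adjusted p = 0.0603), and Nr1d1 was at -0.03 (adjusted p = 0.96). The NTB libraries differed among themselves in these genes. Arntl was 18.9 and 15.1 CPM in NTB replicates 1 and 4 and 2.23 to 8.02 CPM in the other NTB libraries. Tef was 73.8 and 69.2 CPM in the same 2 and 140 to 235 CPM in the others. The time of day at which tissue was taken is not stated for either group, so its part in these values cannot be told apart from the tumour's.

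Glucocorticoid-responsive genes had the highest share of calls among the lists examined, 11 of 21 (52.4%), with 10 higher, 1 lower and a median of 1.07. Without replicates 2 and 4 the median was 0.77 and 1 of the 21 was called, so the direction was shared by the other libraries while the calls were not. Fkbp5, a chaperone partner of the glucocorticoid receptor and one of its targets, stood at 19.3, 29.2, 50.7, 14.6 and 59.97 CPM in the NTB libraries. In the IgG1 libraries it stood at 108, 173, 112.4, 232 and 99.1 CPM, in each case above the NTB group (2.06, SE 0.39, adjusted p = 0.00909, and 1.61 without replicates 2 and 4, adjusted p = 0.0631). Mt1 and Mt2 encode metallothioneins, which bind zinc and respond to glucocorticoids and metals, and they rose by 1.58 (SE 0.30, adjusted p = 0.00953) and 1.87 (SE 0.38, adjusted p = 0.0124). Mt1 lay at 99.8 to 146 CPM in the NTB libraries and at 200, 442, 223, 563 and 233 CPM in the IgG1 libraries, with replicates 2 and 4 well above the other 3. Without those 2 libraries neither gene was called, with Mt1 at 0.97 (adjusted p = 0.0631) and Mt2 at 1.27 (adjusted p = 0.0926). Mt2 overlapped between the groups, since NTB replicate 5 held 74.6 CPM and IgG1 replicate 5 held 62.8 CPM. Glul, glutamine synthetase, rose from 1285 to 1797 CPM to 2309 to 4970 CPM (1.10, SE 0.23, adjusted p = 0.0124, and 0.77 without the 2, adjusted p = 0.0787). The receptor gene itself, Nr3c1, was the member that fell, by 0.36 (adjusted p = 0.0212). Tsc22d3 and Dusp1, also known targets, gave 0.35 (adjusted p = 0.474) and -0.05 (adjusted p = 0.929).

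The promoters of 4 of these genes are shown because Per1, Fkbp5, Mt1 and Mt2 carry short motifs known for the clock and MYC-family proteins, for the glucocorticoid receptor or for the metal sensor MTF1. They are RefSeq sequences on build GRCm38.p6, 300 bases from 250 before to 50 after the start of the gene, 5′ to 3′ on the gene's strand, with the matches in capitals. In Per1 (chr11:69098699-69098998, plus strand) and Fkbp5 (chr17:28486100-28486399, minus strand) the capitals mark the E-box CACGTG, 166 and 169 bases before the start. In Mt1 (chr8:94178839-94179138, plus strand) they mark a glucocorticoid response element 94 bases before the start and a metal response element core 20 bases after it. In Mt2 (chr8:94172368-94172667, plus strand) they mark 2 metal response element cores, 128 bases before and 4 bases after the start.
Per1: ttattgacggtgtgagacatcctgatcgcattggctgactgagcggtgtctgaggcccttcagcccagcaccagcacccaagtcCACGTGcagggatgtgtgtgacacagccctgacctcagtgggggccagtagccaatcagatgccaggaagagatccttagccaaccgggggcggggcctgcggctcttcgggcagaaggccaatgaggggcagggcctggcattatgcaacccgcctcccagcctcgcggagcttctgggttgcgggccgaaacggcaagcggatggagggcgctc
Fkbp5: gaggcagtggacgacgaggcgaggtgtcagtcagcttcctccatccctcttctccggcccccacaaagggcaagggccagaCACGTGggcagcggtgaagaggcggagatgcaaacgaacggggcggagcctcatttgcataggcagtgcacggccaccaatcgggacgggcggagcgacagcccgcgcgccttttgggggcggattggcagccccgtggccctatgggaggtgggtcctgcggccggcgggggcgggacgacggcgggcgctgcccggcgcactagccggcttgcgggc
Mt1: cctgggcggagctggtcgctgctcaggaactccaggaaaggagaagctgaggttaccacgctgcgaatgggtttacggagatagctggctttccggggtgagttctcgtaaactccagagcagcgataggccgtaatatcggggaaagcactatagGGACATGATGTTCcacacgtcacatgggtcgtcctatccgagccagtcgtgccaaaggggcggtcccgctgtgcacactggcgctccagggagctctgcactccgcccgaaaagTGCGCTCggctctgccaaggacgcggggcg
Mt2: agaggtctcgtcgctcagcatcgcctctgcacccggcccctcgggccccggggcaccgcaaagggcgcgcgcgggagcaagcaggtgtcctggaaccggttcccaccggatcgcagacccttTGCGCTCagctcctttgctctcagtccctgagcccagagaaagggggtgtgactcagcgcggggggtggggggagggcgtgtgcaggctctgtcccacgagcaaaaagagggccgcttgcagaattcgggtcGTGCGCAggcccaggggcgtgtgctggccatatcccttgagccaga

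Motifs were searched on both strands as exact letters: the E-box CACGTG, the D-box TTATGTAA, the cAMP response element TGACGTCA, the metal response element core TGCGCNC, a glucocorticoid response element (GNACA, 3 bases, TGTNC) and a PPAR direct repeat. Stretches that differ from these letters, such as tgcactc in Mt1, were neither marked nor counted. No 2 matches shown overlap. Of 19 called members of the clock, glucocorticoid and metallothionein lists, 16 matched a RefSeq promoter. The E-box was in 7 of the 16, and in 11.5% of the promoters of 10842 tested genes. The metal response element core was in 8 of 16 (29.3% of tested genes), the glucocorticoid response element in 2 (0.424%), the cAMP response element in 1 (3.44%), and the other 2 motifs in 0. A match describes the letters of these windows and is not a binding site.

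Genes for handling fatty acids rose in part. All 4 called members of the 12 acyl-CoA thioesterases, which release free fatty acids from coenzyme A, were higher, and the list's median was 0.80, or 0.58 without replicates 2 and 4. Acot2, the mitochondrial member, stood at 40.1, 38.6, 37.0, 26.2 and 37.4 CPM in the NTB libraries and at 85.4, 71.7, 65.4, 81.4 and 62.6 CPM in the IgG1 libraries. The change was even across the IgG1 libraries (1.03, SE 0.14, adjusted p = 0.00350), and it was 0.99 without replicates 2 and 4 (adjusted p = 0.0306). Acot4 rose by 1.67 (SE 0.31), Acot3 by 4.46 (SE 0.88) and Acot1 by 3.05 (SE 0.79), and without replicates 2 and 4 Acot1 was at 1.93 (adjusted p = 0.218). Acot1 and Acot2 are near-identical copies whose reads can be split between them, so the share of each is uncertain, and Acot3 had 25 reads in the NTB libraries. Slc27a1, a fatty acid transporter of the cell surface, rose from 516, 1228, 1032, 717 and 889 CPM to 2881, 2804, 1992, 2724 and 2513 CPM. All IgG1 libraries lay above the NTB range (1.56, SE 0.26, adjusted p = 0.00658), and the gene was called without the 2 libraries at 1.49 (adjusted p = 0.0444).

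Of 16 lipolysis genes 3 were called (18.8%, against 8.64% of all genes), all higher, and the median was 0.09. They were Pnpla2, the enzyme of the first step of triglyceride breakdown, its activator Abhd5, and Prkar2b, a subunit of protein kinase A. Pnpla2 lay at 1846, 2071, 1664, 2151 and 2100 CPM in the NTB libraries and at 2915, 2824, 3135, 3208 and 2624 CPM in the IgG1 libraries, a shift of 0.58 (SE 0.14, adjusted p = 0.0264) without overlap. The call ended, at an adjusted p of 0.0543 to 0.0648, when NTB replicate 1, 2 or 3 or IgG1 replicate 2 or 4 was left out. Abhd5 shifted by 0.67 (SE 0.15, adjusted p = 0.0198). Lipe, hormone-sensitive lipase, gave 0.30 (adjusted p = 0.223). In triglyceride synthesis Agpat6, a glycerol-phosphate acyltransferase, rose by 1.38 (SE 0.29, adjusted p = 0.0142) and Lpin1, a phosphatidate phosphatase, by 0.74 (SE 0.21, adjusted p = 0.0411), so genes of both breakdown and synthesis were among the called. Agpat6 was 796 and 1101 CPM in IgG1 replicates 2 and 4 and 337 to 566 CPM in the other 3, against 196 to 280 CPM in the NTB libraries, and its change without the 2 was 0.83 (adjusted p = 0.0904).

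Fatty acid synthesis did not move as 1 group. Acacb, an acetyl-CoA carboxylase, rose with overlapping groups (1.74, SE 0.49, adjusted p = 0.0414, and 1.04 without replicates 2 and 4, adjusted p = 0.273), and Scd2, a desaturase, and Pnpla3, a lipase-like acyltransferase, fell, while 16 of 19 did not pass. Scd2 went from 708 to 1023 CPM in the NTB libraries to 494, 224, 87.2, 176 and 476 CPM (-1.64, SE 0.41, adjusted p = 0.0271), and its call ended without NTB replicate 1 or 3 or IgG1 replicate 2 or 4 (adjusted p at most 0.0714). Fasn, the synthase itself, shows the spread: it was 17875, 15223, 2676, 19716 and 28080 CPM in the IgG1 libraries and 6762 to 13851 CPM in the NTB libraries. IgG1 replicate 3 was the lowest of the 10 and replicate 5 the highest, and the change of 0.79 did not pass (adjusted p = 0.293).

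Oxidation genes were higher mainly in the 2 libraries that stood apart. Of 23 beta-oxidation genes 6 were called, all higher, with a median of 0.90, and without IgG1 replicates 2 and 4 the median was 0.20. In single libraries the median of the list relative to the NTB mean was 1.25 and 1.32 in replicates 2 and 4, 0.79 in replicate 5 and -0.07 and -0.18 in replicates 1 and 3. Acad10 and Acad11, acyl-CoA dehydrogenase family genes, rose by 0.92 (SE 0.17) and 0.72 (SE 0.14), both at an adjusted p of 0.0091. Acad11 kept its order in each library, at 293 to 377 CPM in the IgG1 libraries and 150 to 231 CPM in the NTB libraries. Of 52 respiratory chain and ATP synthase genes edgeR called 1, Sdhb of complex II, and the median of 0.68 became 0.11 without the 2 libraries. DESeq2 called 20, all higher, and 29 were higher at an unadjusted p under 0.05. Over all 14402 genes these counts were 2551 and 4198, in either direction. Without the 2 libraries 0 of the 52 had an unadjusted p under 0.05. Sdhb was 800 and 834 CPM in replicates 2 and 4, 461 CPM in replicate 5 and 224 and 238 CPM in the others, within 186 to 279 CPM for the NTB group, and it lost its call when either of the 2 was left out. Without both its change was 0.40 (adjusted p = 0.392).

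The thermogenic list had a median of 1.29 with all libraries and -0.11 without replicates 2 and 4. Ucp1, the uncoupling protein of heat-producing fat cells, was 628, 327, 93.0, 181 and 426 CPM in the NTB libraries and 73.6, 3286, 37.1, 3143 and 712 CPM in the IgG1 libraries. The IgG1 group held both the highest and the lowest levels, and the change of 2.13 did not pass (adjusted p = 0.165). Of the 18 tested members 1 was called higher, Slc27a2, an acyl-CoA synthetase gene (3.26, SE 0.95, adjusted p = 0.0458). It was 107 and 211 CPM in these libraries and 2.99 to 39.8 CPM in the other IgG1 libraries, against 3.21 to 13.8 CPM in the NTB group, and its change was 1.11 without them (adjusted p = 0.486). The 2 that fell were Ckb, brain-type creatine kinase, and Gatm, an enzyme of creatine synthesis. Zic1 and Lhx8, markers of the classical brown depots in mice, had 0 reads in the NTB libraries and 2 and 9 reads in the IgG1 libraries.

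Amino acid breakdown followed a similar split. Of 25 genes listed for branched-chain and other amino acid catabolism 6 were called, all higher (median 0.45, or 0.16 without the 2 libraries). Among the 6 was Glul, the glutamine synthetase gene given above, which is an enzyme of synthesis and not of breakdown. Bcat2, the mitochondrial transaminase of the branched-chain amino acids, stood at 133 to 166 CPM in the NTB libraries and at 240, 446, 237, 365 and 277 CPM in the IgG1 libraries, all above the NTB group (1.08, SE 0.20, adjusted p = 0.00939, and 0.76 without the 2, adjusted p = 0.0637). Aldh6a1, of valine breakdown, was even across the IgG1 libraries at 572 to 677 CPM, against 335 to 491 CPM (0.67, SE 0.13, adjusted p = 0.0118). Of 31 peroxisome genes 6 rose (19.4%, against 8.64% of all genes), among them Pex3, a factor of peroxisome assembly (0.55, SE 0.12, adjusted p = 0.0182). Retsat, retinol saturase, rose by 1.08 (SE 0.17, adjusted p = 0.00595), and by 0.84 without replicates 2 and 4 (adjusted p = 0.0449).

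**Figure D3:**
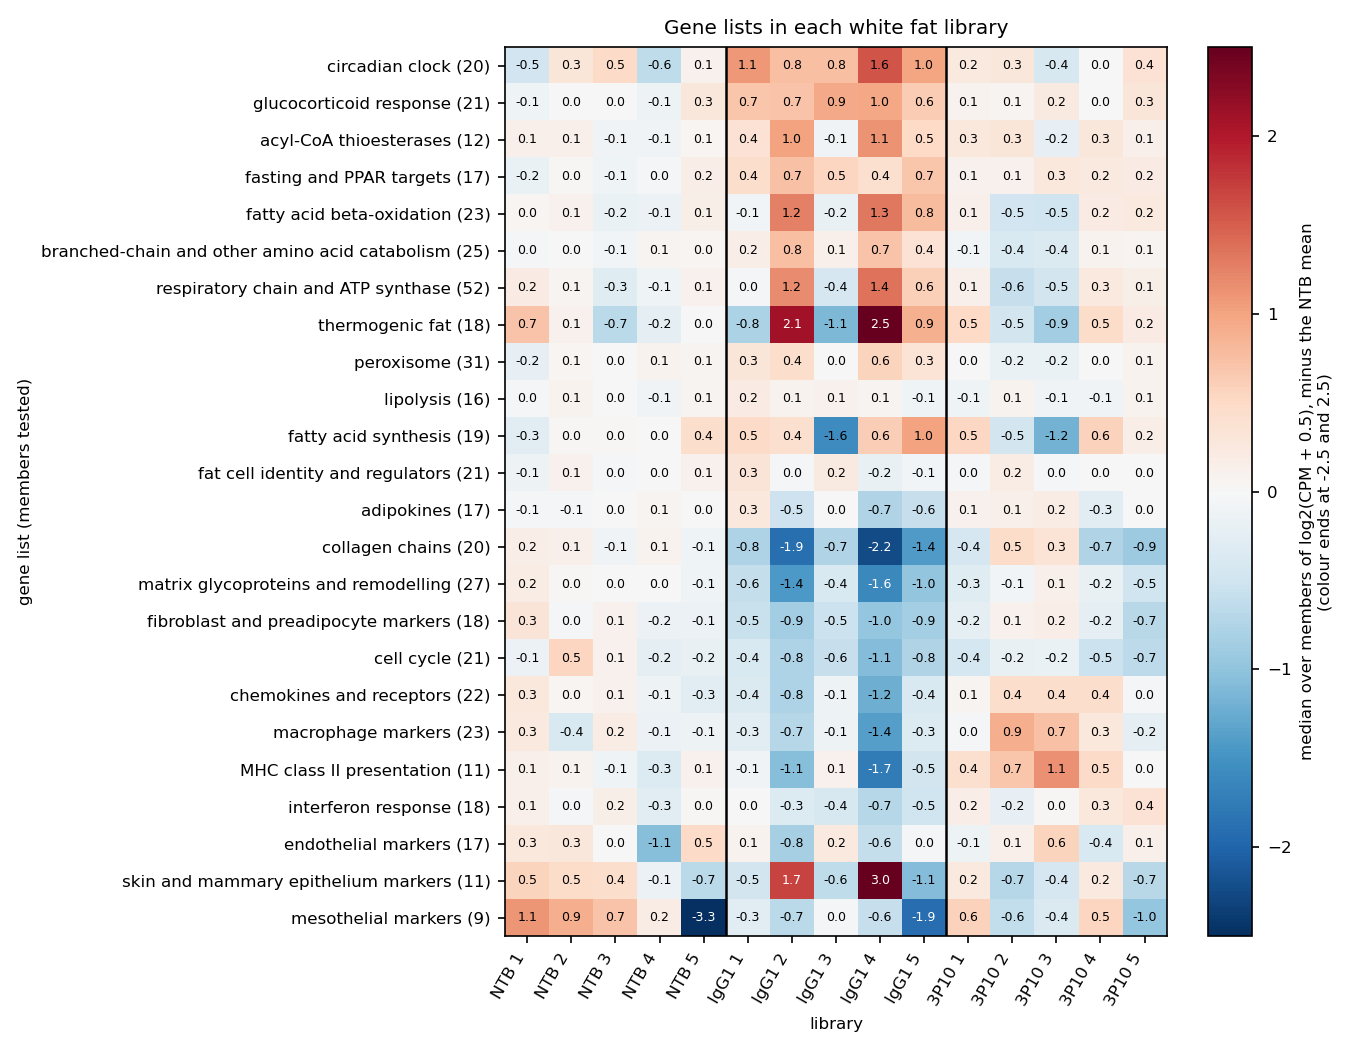
Colours and numbers give, for 24 gene lists in each of the 15 white fat libraries, the median over the tested members of log2(CPM + 0.5) minus the mean of the NTB libraries. The clock and glucocorticoid lists are above 0 in all 5 IgG1 libraries and the collagen list below 0 in all 5, whereas the thermogenic list is high in IgG1 replicates 2 and 4 and below 0 in replicates 1 and 3.

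Hormone genes of the fat cell were split. Of 17 adipokine genes 3 rose and 1 fell (23.5% called, against 8.64% of all genes). Lep, leptin, was 1450, 1521, 1460, 1203 and 1827 CPM in the NTB libraries and 1128, 155, 1386, 60.2 and 344 CPM in the IgG1 libraries. IgG1 replicates 1 and 3 lay near the NTB range and the other 3 far below it, so the change of -1.28 (SE 0.63) did not pass (adjusted p = 0.189). Adipoq gave 0.05 (adjusted p = 0.916). Cfd, adipsin, rose by 0.83 (SE 0.24, adjusted p = 0.0465), and Agt, angiotensinogen, by 1.44 (SE 0.37, adjusted p = 0.0287), both with overlapping groups. Nrg4 rose by 0.61 (SE 0.18, adjusted p = 0.0432). Apln, apelin, fell from 4.51 to 7.81 CPM to 1.16 to 3.41 CPM (-1.29, SE 0.30, adjusted p = 0.0229), and the 3P10 libraries, at 1.395 to 4.04 CPM, overlapped both groups. Of 21 fat cell identity genes 2 were called, both higher (9.52%, near the 8.64% of all genes), with a median of 0.09.

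Collagen genes were low in each IgG1 library, where the median of the list relative to the NTB mean was -0.78, -1.89, -0.74, -2.24 and -1.41 in replicates 1 to 5. Of 20 collagen chains 8 fell, all 20 had a negative fold change, and the median was -1.33. Without replicates 2 and 4 it was -1.04 and 3 chains were called. Col1a1, a chain of the main fibrillar collagen, stood at 473, 386, 336, 422 and 363 CPM in the NTB libraries and at 180, 25.8, 102, 18.4 and 62.7 CPM in the IgG1 libraries. Each IgG1 library was below each NTB library, replicates 2 and 4 most of all (-2.35, SE 0.49, adjusted p = 0.0139, and -1.78 without the 2, adjusted p = 0.0432). Its partner chain Col1a2 fell by 2.15 (SE 0.39), Col3a1 by 2.001 (SE 0.40, and -1.53 without the 2, adjusted p = 0.0558) and the microfibril chain Col6a3 by 1.91 (SE 0.37). Col6a3 was 169 to 234 CPM in the NTB libraries and 100, 22.1, 78.4, 21.6 and 56.1 CPM in the IgG1 libraries, and it was called without the 2 libraries (-1.42, adjusted p = 0.0306). These are bulk libraries, so fewer stromal cells and less RNA per cell cannot be told apart.

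The called matrix and stromal genes outside the collagens fell as well. Of 27 matrix glycoprotein and remodelling genes all 10 that were called fell (median -0.84, and -0.53 without replicates 2 and 4). Fn1, fibronectin, stood at 416, 295, 248, 332 and 144 CPM in the NTB libraries and at 107, 98.0, 118, 88.9 and 68.7 CPM in the IgG1 libraries, with little spread between IgG1 libraries (-1.58, SE 0.25, adjusted p = 0.00588). Fbn1, fibrillin, fell by 1.68 (SE 0.25, adjusted p = 0.00394), the stromelysin gene Mmp3 by 2.46 (SE 0.53, adjusted p = 0.0153) and its class's inhibitor Timp1 by 2.44 (SE 0.53, adjusted p = 0.0164). Fn1 and Fbn1 were as low without the 2 libraries, at -1.552 and -1.5, and both were called. Of 18 markers of fibroblasts and fat cell precursors all 7 that were called fell (median -0.96, and -0.79 without them). Thy1, a surface protein of fibroblasts, went from 35.3, 31.03, 26.1, 21.7 and 15.5 CPM to 7.93, 7.44, 4.09, 4.502 and 3.218 CPM. The groups were apart with or without the 2 libraries (-2.26, SE 0.31, adjusted p = 0.00342, and -2.35, adjusted p = 0.0237). Lum, lumican, fell by 1.84 (SE 0.32) and Cd34, also found on vessels, by 1.07 (SE 0.23). Not all markers were lower: 4 of the 18 had a positive fold change, and Pdgfra, a growth factor receptor of fibroblasts and precursors, gave -0.14 (adjusted p = 0.683). Of 17 endothelial markers 0 were called by edgeR or DESeq2 and 1 was lower at an unadjusted p under 0.05 (median -0.27), and the summed level of the 19 markers in the table was 586 to 1809 CPM in the NTB and 761 to 1337 CPM in the IgG1 libraries.

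Genes of cell division were low. Of 21 cell cycle genes 9 were called, all lower (median -0.93). Without replicates 2 and 4 the median was -0.86 and edgeR called 0, while 11 had an unadjusted p under 0.05. Top2a, the topoisomerase of dividing cells, was 7.07, 17.7, 9.82, 5.21 and 5.44 CPM in the NTB libraries and 4.34, 2.09, 1.06, 1.75 and 0.871 CPM in the IgG1 libraries, and NTB replicate 2 was the highest (-2.17, SE 0.44, adjusted p = 0.0120). Prc1, a spindle protein gene, fell by 2.36 (SE 0.54) and the cyclin genes Ccnd1 and Ccnb2 by 1.61 (SE 0.31) and 2.21 (SE 0.51), each of these with an adjusted p of at most 0.0209. Of 15 growth arrest genes 4 were called (26.7%, against 8.64% of all genes), all lower. They were Gadd45a, induced by DNA damage (-0.90, and -0.56 without replicates 2 and 4, adjusted p = 0.116), the kinase inhibitor Cdkn2c, the membrane protein gene Gas1 and Trp53inp2, an autophagy factor. Cdkn2c was 217 to 349 CPM in the NTB libraries and 134 to 193 CPM in the IgG1 libraries (-0.89, SE 0.18, adjusted p = 0.0122).

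Most immune genes that were called fell. Of 22 chemokine and receptor genes all 5 that were called fell (22.7%, against 8.64% of all genes), with a median of -0.62, and -0.33 without the 2 libraries. Ccl8, a ligand for monocytes, was 5.65, 2.71, 4.94, 0.991 and 0.770 CPM in the NTB libraries and 0.279, 0.161, 0.156, 0.290 and 0.757 CPM in the IgG1 libraries. The highest IgG1 library came close to the lowest NTB library (-3.20, SE 0.68, adjusted p = 0.0149). The receptor gene Cx3cr1 fell by 1.22 (SE 0.28), and the ligand Cxcl16 by 1.14 (SE 0.27). Of 23 macrophage markers 1 was called, Mertk, a receptor for the uptake of dying cells, which rose (0.74, SE 0.21, adjusted p = 0.0390). A further 10 markers were lower at an unadjusted p under 0.05, 4 of them called by DESeq2. The median of the macrophage list was -0.56, and its summed level was 619 to 1036 CPM in the NTB libraries, 450 and 313 CPM in IgG1 replicates 2 and 4 and 634 to 792 CPM in the other 3. Of 11 genes for MHC class II presentation edgeR called 0 and DESeq2 1, and 4 were lower at an unadjusted p under 0.05 (median -0.58, and -0.19 without the 2). Of 18 interferon-response genes edgeR called 2, both lower (11.1%, against 8.64% of all genes in either direction and 4.55% lower). DESeq2 called 5, all lower, and 10 were lower at an unadjusted p under 0.05 (median -0.47, and -0.33 without the 2 libraries). Over all 14402 genes these counts were 2551 and 4198, in either direction. The genes called by edgeR were Gbp2, which fell by 0.89 (SE 0.20), and Isg15, by 0.90 (SE 0.26). Gbp2 was at -0.57 without the 2 libraries (adjusted p = 0.0631). Of 9 neutrophil and mast cell markers 2 were called: Kit, a growth factor receptor of mast cells, rose by 0.72 (SE 0.19, adjusted p = 0.0331), and the mast cell tryptase gene Tpsb2 fell by 1.80 (SE 0.53, adjusted p = 0.0488). The other mast cell markers of the list went with Tpsb2 and not with Kit. Cpa3, Mcpt4 and Cma1 gave -1.86, -1.75 and -1.91 and did not pass (adjusted p = 0.125, 0.145 and 0.0647). T, B and NK cell markers summed to at most 19.04 CPM in any of the 10 libraries, and the B cell marker Cd79a had 4 reads in the NTB and 4 in the IgG1 libraries.

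Genes for stress and wasting were called in part. Fbxo31, a ubiquitin ligase subunit, rose from 51.1 to 68.8 CPM to 98.3, 245, 106, 191 and 126 CPM. All IgG1 libraries were above the NTB group, replicates 2 and 4 by the most (1.41, SE 0.24, adjusted p = 0.00658, and 0.93 without them, adjusted p = 0.0370). It was 1 of 5 called of 25 genes for atrophy, ubiquitin ligases and autophagy (20%), all 5 higher, with the mitophagy receptor Bnip3l at 0.41 (SE 0.10). In the integrated stress response, where 2 of 19 were called (10.5%, near the 8.64% of all genes) and in opposite directions, Chac1, a glutathione-degrading enzyme, rose by 1.14 (SE 0.27, adjusted p = 0.0224) and Mthfd2, of mitochondrial folate metabolism, fell by 0.75 (SE 0.18, adjusted p = 0.0250). Chac1 was higher in replicates 1 and 3, at 32.8 and 24.97 CPM, than in replicates 2 and 4, at 16.4 and 11.7 CPM, and its change without those 2 was 1.41 (adjusted p = 0.0377). Of 23 acute phase genes 3 rose: Il6ra, a receptor for interleukin 6 (0.97, SE 0.23), Cebpd, a transcription factor (1.68, SE 0.48), and Lcn2, lipocalin 2 (2.25, SE 0.54). Of 23 insulin and IGF genes 4 rose and 2 fell (26.1% called, against 8.64% of all genes). Those that fell were the IGF-binding protein genes Igfbp5 (-1.27, SE 0.32) and Igfbp6 (-1.67, SE 0.43). Another, Igfbp3, was among the 4 that rose (1.27, SE 0.33). Pdk2, a brake on pyruvate oxidation from the list of fasting and PPAR target genes, rose by 0.90 (SE 0.16, adjusted p = 0.00854).

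**Figure D4:**
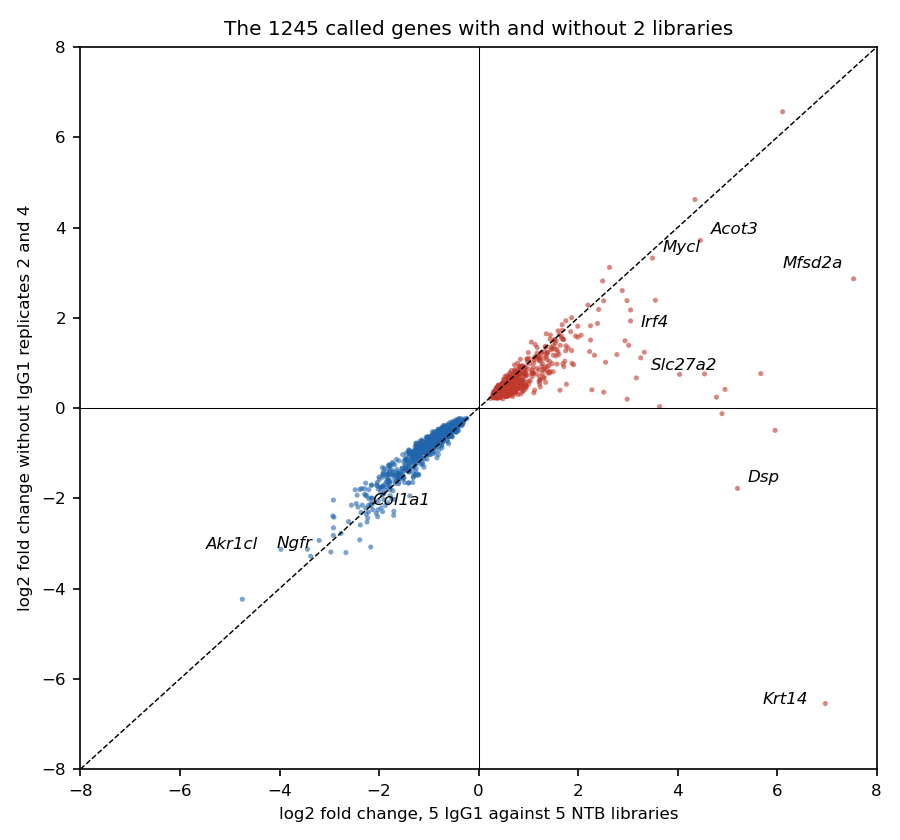
Log2 fold change of the 1245 called genes with all 5 IgG1 libraries (x axis) and without IgG1 replicates 2 and 4 (y axis), with genes called higher in red, genes called lower in blue and a dashed line where both are equal. All 656 genes called lower stay below 0, which is a description, since they were called with libraries that both fits share. The points far below the line on the right are genes such as Krt14, Dsp and Mfsd2a whose rise lay in those 2 libraries.

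Some rises belonged to 1 or 2 libraries. Krt14, a keratin of stratified epithelium, was 283 CPM in IgG1 replicate 4 and at most 0.818 CPM in the other 9 libraries, yet it was called higher (6.97, SE 2.07, adjusted p = 0.0487). Without replicate 4 its change was -1.15, and without replicates 2 and 4 it was -6.55 with 0 reads in the 3 IgG1 libraries, a value that depends on the prior count of the fit. The desmosome gene Dsp was 27.6 and 118 CPM in replicates 2 and 4 and at most 1.31 CPM elsewhere, and its change of 5.20 became -1.78 without them. The 22 skin and mammary epithelium markers summed to 59.2 to 176 CPM in the NTB libraries, 458 and 1563 CPM in IgG1 replicates 2 and 4 and 114 to 162 CPM in the other 3. The part of such cells in the other rises seen in these 2 libraries was not tested. Of 9 mesothelial markers edgeR called 0 and DESeq2 1, and 3 were lower at an unadjusted p under 0.05, with NTB replicate 5 lowest at 58.2 CPM summed and the other NTB libraries reaching 480 CPM. Hox and depot genes, which mark body position, gave 3 falls of 20 (15%, against 8.64% of all genes), among them Hoxc4 (-0.87, SE 0.19, adjusted p = 0.0164). Whether the depot piece differed between the groups is not given in the sources used here.

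Of the receptor system that 3P10 targets, Gfral had 0 reads in the NTB and IgG1 libraries. A count of 0 allows up to 3 counts per library, which is 0.0394 to 0.136 CPM and covers counting error only. Gdf15 was low, at 0.0921 to 0.781 CPM over the 10 libraries, and gave -0.57 (adjusted p = 0.514). Ret, the co-receptor kinase gene, was 21.3 to 53.5 CPM in the NTB libraries and 24.4, 3.78, 39.0, 3.05 and 7.31 CPM in the IgG1 libraries, and its change of -1.51 did not pass (adjusted p = 0.117).

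Muscle of the gastrocnemius, sequenced with the same kit in 5 NTB and 5 IgG1 libraries, was used to ask which effects differed between the tissues. In a joint model of 14898 genes the effect in white fat differed from that in muscle for 166 (1.11%), and 65 of these were among the 1245 called in white fat. Without IgG1 replicates 2 and 4 of white fat edgeR called 0, with 1491 genes at an unadjusted p under 0.05 against 2314 with all libraries. Leaving out 1 white fat library gave 77, 93, 82 and 105 genes without NTB replicates 1 to 4, 53 and 44 without IgG1 replicates 2 and 4, and 492 and 582 without IgG1 replicates 1 and 3. Of the 1245, 182 were called in muscle too in that model with the same sign, which is 14.6% of them and 23% of the 792 genes called in muscle (5.32% of all 14898). White fat and muscle libraries carry the same numbers in each group. The sample names in the titles match too, such as WAT-23 and GN-23 for IgG1 replicate 4. Whether a shared number is a shared mouse is not given in the sources used here. The model has no term for it. With a term for each shared number 21 genes differed between the tissues, 19 of them among the 166, and of the genes given next Mycl, Gadd45a and Bcat2 were called in that fit. Mycl (difference 2.67, SE 0.61, adjusted p = 0.0278) and Mfsd2a (7.73, SE 1.62, adjusted p = 0.0205) changed more in white fat, where muscle gave 0.85 and -0.18. Ngfr gave -2.97 in white fat and 0.81 in muscle (difference -3.74, SE 0.83, adjusted p = 0.0250). Gadd45a ran in opposite directions, -0.90 in white fat and 1.08 in muscle (difference -1.95, SE 0.34, adjusted p = 0.01001), and both tissues called it. Cdkn2c, Gas1 and Lgals3, which encodes galectin 3, also had a lower effect in white fat, by 1.6, 1.78 and 2.31. Bcat2, Agpat6, Retsat and Sdhb had a higher one, by 1.31, 1.498, 1.07 and 1.54.

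For other leading genes a difference between the tissues was not called. Fkbp5 gave 1.53 in muscle (SE 0.37, adjusted p = 0.0128) and Per1 1.15 (SE 0.23, adjusted p = 0.00376), both called there. Mt1 and Mt2 gave 3.21 and 4.03 in muscle, and the difference from white fat was -1.61 (SE 0.75, adjusted p = 0.297) and -2.14 (SE 0.91, adjusted p = 0.240). Col1a1 gave -1.86 and Thy1 -1.76 in muscle, both called, with differences of -0.47 (SE 0.58) and -0.47 (SE 0.41). Irf4 gave 0.81 in muscle and was not called there, and the difference of 2.27 (SE 0.67) did not pass (adjusted p = 0.0888). A p that misses the threshold does not show that the tissues responded alike.

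**Figure D5:**
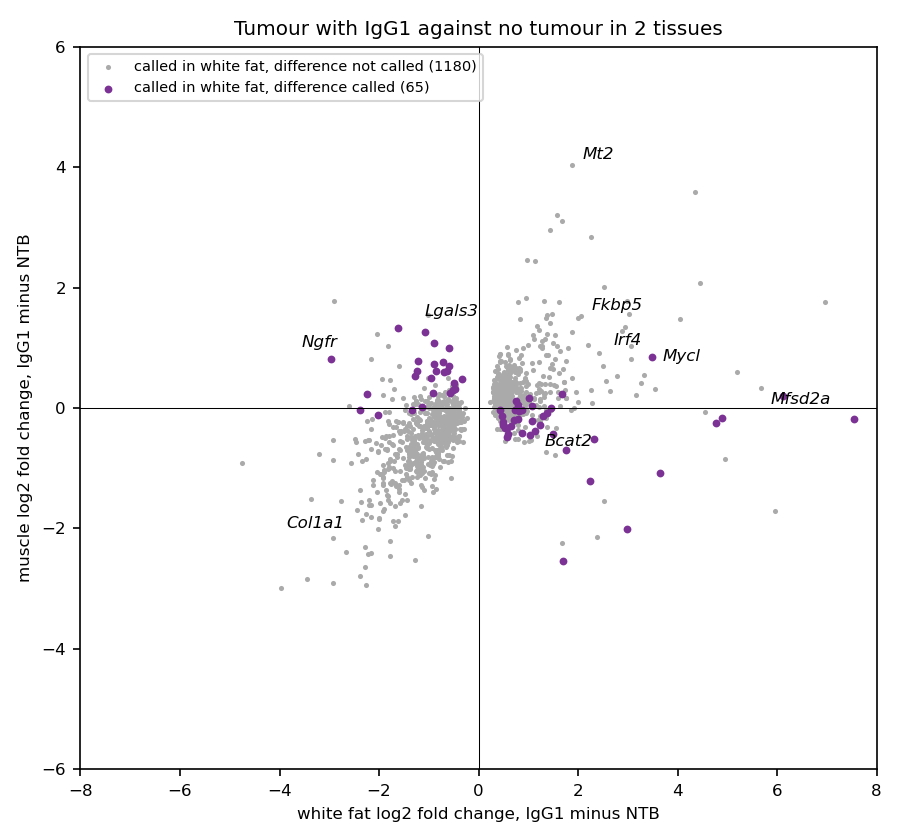
Log2 fold change, IgG1 minus NTB, in white fat (x axis) and in muscle (y axis) for the 1245 genes called in white fat. Purple points are the 65 genes whose effect differed between the tissues in the joint model, such as Mfsd2a at 7.54 in white fat and -0.18 in muscle, and grey points are the other 1180.

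The 3P10 libraries are given as levels, since a contrast with either group would share its libraries with the comparison above. Over the 589 genes called higher, the median log2 level relative to the NTB mean was 0.39, 0.74, 0.41, 0.82 and 0.60 in IgG1 replicates 1 to 5 and between -0.06 and 0.20 in the 3P10 libraries. Over the 656 called lower it was -0.57, -1.07, -0.68, -1.13 and -0.91 in the IgG1 libraries and between -0.41 and -0.02 in the 3P10 libraries. The genes were chosen on the IgG1 and NTB levels, so these medians are a description. No 3P10 library reached the least shifted IgG1 library on either side, and 3P10 replicate 5 came nearest on both. Per1 was 21.4 to 41.0 CPM and Slc27a1 552 to 1493 CPM in the 3P10 libraries. Fn1 was 119 to 237 CPM and Col1a1 176 to 448 CPM, which overlapped the NTB range of each, and the lowest 3P10 level of Col1a1 also lay below the 180 CPM of IgG1 replicate 1.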

How the data were processed

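RNA of flash-frozen white fat and gastrocnemius muscle was sequenced with a directional kit, per the labels' protocols. The deposited values are raw counts of reads per gene symbol. Per the submitters' processing notes, the authors trimmed reads with Trim Galore, aligned them to mm9 with STAR 2.6.0a and counted them with featureCounts 1.6.2. The annotation and strand setting are not given in the sources used here, so overlapping genes and near-identical copies may share reads, and no gene coordinates of that build are given.

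Counts of the 15 white fat libraries (18.6 to 80.7 M) were fitted with edgeR 4.0.16 in R 4.3.3, with the groups in 1 quasi-likelihood model with TMM factors and filterByExpr (minimum count 10, minimum total 15), leaving 12 residual degrees of freedom. Tests were 2-sided, with Benjamini-Hochberg adjustment over all genes tested and a threshold of 0.05. Fold changes are log2 with their standard error (SE). White fat and muscle were compared by the interaction term of a model of 30 libraries, with no term for the numbers that both tissues share; a fit with 1 was added after the data were seen. The scripts were tested on simulated data.

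Named genes were the 15 largest rises and 15 largest falls among called genes without overlap and with at least 1 CPM in the higher group, up to 4 called members per list with the smallest adjusted p, and a panel of 15. The text gives part of these, and some genes included in counts are not reported here. Per2, Cry1, Tef, Hlf, Pdgfra, Arntl, Nr1d1, Nr3c1, Tsc22d3, Dusp1, Cpa3, Mcpt4 and Cma1 lie outside that rule and were named after their values were seen. The genes, lists and tests were chosen with earlier results of these data known. Alternatives were DESeq2 1.42.0, RLE or upper-quartile factors, other filters, a fit without the 3P10 libraries, a replicate block and libraries left out. Brown fat was not analysed here.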

Additional observations from a re-analysis of the deposited data

Results flagged for a closer look

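In 15 of 214 groups of 5 libraries examined, over 107 genes, 1 library lay far from the other 4 relative to the range of the group. Chance alone gives about 1 in 20 such groups. In the IgG1 group replicate 4 was the distant library for Krt14 (283 CPM, others 0 to 0.804), Dsp (118 CPM, others 0.0757 to 27.6), Usp2 (83.5 CPM, others 24.9 to 39.6), Hlf (74.9 CPM, others 38.6 to 44.3) and Ngfr (1.46 CPM, others 0.644 to 0.844). IgG1 replicate 2 was distant for Lcn2 (8.33 CPM, others 1.05 to 3.14), replicate 5 for Ccl8 (0.757 CPM, others 0.156 to 0.290) and replicate 1 for Isg15 (8.69 CPM, others 3.52 to 4.62). In the NTB group replicate 5 was distant for Mt1 (146 CPM, others 99.8 to 106), Mt2 (74.6 CPM, others 22.4 to 33.1) and Col1a2 (430 CPM, others 696 to 731). NTB replicate 4 was distant for Acot2 (26.2 CPM, others 37.0 to 40.1), Adipoq (3913 CPM, others 2510 to 2837) and Ret (21.3 CPM, others 44.9 to 53.5), and NTB replicate 1 for Cd34 (218 CPM, others 111 to 131.5).

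For 11 of the genes the effect of tumour with IgG1 differed between white fat and muscle in the joint edgeR model. The effect in white fat minus that in muscle was positive for Mfsd2a (7.73), Mycl (2.67), Sdhb (1.54), Agpat6 (1.498), Bcat2 (1.31) and Retsat (1.07). It was negative for Ngfr (-3.74), Lgals3 (-2.31), Gadd45a (-1.95), Gas1 (-1.78) and Cdkn2c (-1.6). The adjusted p of these 11 ran from 0.01001 to 0.0451. With a term for each number shared by a white fat and a muscle library it was under 0.05 for Mycl, Gadd45a and Bcat2 (0.0401 to 0.0461) and 0.0645 to 0.151 for the other 8.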

How the results depend on the processing

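DESeq2 called 2551 genes in white fat, 1243 of the 1245 among them, and 556 for the difference from muscle. RLE or upper-quartile factors, other low-count filters and a fit of the 10 NTB and IgG1 libraries alone gave 934 to 1351 genes in white fat, and the same settings gave 124 to 178 for the difference from muscle, except that last fit, with 62. Without IgG1 replicates 2 and 4 the counts were 93 and 0. Leaving out 1 library gave 344 to 2354 genes in white fat and 44 to 582 for the difference. With a replicate block they were 1292 and 106. A block for each number shared by a white fat and a muscle library of a group, chosen after seeing the data, gave 21 for the difference. The replicate numbers were not taken to pair the samples: the correlation of NTB and IgG1 deviations with the same number ran from -0.21 to 0.43, and that of white fat and muscle deviations from 0.074 to 0.196 in the IgG1 and from -0.157 to 0.171 in the NTB group.

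Among the 94 called genes of the text, the sign of the fold change turned only for Krt14 and Dsp. Krt14 ran from -1.15 without IgG1 replicate 4 to 7.405 without NTB replicate 3 and lay at -6.55 without replicates 2 and 4. Dsp was at -1.78 without both. Uncalled genes could turn sign too, such as Ucp1, at 2.13 with all libraries and -0.27 without both. Of 143 named genes, 35 kept their side of the threshold without both and 106 lost the call. The cause was not tested. Under RLE factors all 143 kept their side of the threshold, and under upper-quartile factors 141 did. Of the 94 called genes of the text, 13 lost the call under the replicate block (Acacb, Agt, Dsp, Igfbp3, Krt14, Lpin1, Per2, Prkar2b, Sdhb, Slc27a2, Tef, Tpsb2 and Trp53inp2). In the fit of NTB and IgG1 alone 20 did (Agt, Cebpd, Cfd, Ckb, Cry1, Dsp, Gadd45a, Igfbp3, Igfbp6, Isg15, Kit, Krt14, Nrg4, Per2, Pnpla3, Prkar2b, Sdhb, Slc27a2, Tef and Tpsb2). With no low-count filter 11 did (Cfd, Gas1, Gatm, Isg15, Krt14, Lpin1, Nrg4, Sdhb, Slc27a2, Tpsb2 and Trp53inp2). The 48 called genes of the text whose call ended when 1 library was left out, with the largest adjusted p of each between 0.0501 and 0.592, were Igfbp5, Per2, Cfd, Cry1, Igfbp3, Cxcl16, Hlf, Krt14, Lpin1, Prkar2b, Acot1, Ckb, Dsp, Gas1, Lgals3, Bnip3l, Tef, Pnpla3, Igfbp6, Hoxc4, Cebpd, Nr3c1, Scd2, Lcn2, Chac1, Gatm, Slc27a2, Mertk, Trp53inp2, Il6ra, Ciart, Gbp2, Sdhb, Isg15, Acacb, Gadd45a, Mthfd2, Prc1, Pnpla2, Agt, Nrg4, Ccnb2, Cx3cr1, Abhd5, Timp1, Apln, Kit and Tpsb2. Depth limits genes near 0 reads in the NTB libraries, such as Mfsd2a and Acot3.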

Other observations

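Of 17 fasting and PPAR target genes 4 rose and 1 fell (29.4%, against 8.64% of all genes), with a median of 0.79, and 0.62 without IgG1 replicates 2 and 4. The 4 that rose included Irf4, Pdk2 and Lpin1. All 36 cytosolic ribosomal protein genes had a positive fold change, with a median of 0.31. Of these edgeR called 4 (11.1%, against 8.64% of all genes in either direction and 4.09% higher). DESeq2 called 13, and 16 were higher at an unadjusted p under 0.05. The median of that list relative to the NTB mean was 0.60 and 0.55 in IgG1 replicates 2 and 4 and -0.10, 0.17 and 0.38 in replicates 1, 3 and 5.

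Of 24 genes for glucose uptake and glycolysis edgeR called 1, a share below the 8.64% of all genes, and the median was 0.52. DESeq2 called 6, all higher, and 11 were higher at an unadjusted p under 0.05. The list median was 0.75, 0.80 and 0.68 in IgG1 replicates 2, 4 and 5, 0.19 in replicate 1 and -0.38 in replicate 3. Of 31 proteasome subunits edgeR called 0 and DESeq2 4, and 5 were higher at an unadjusted p under 0.05 (median 0.11). Of 11 lipid droplet coat genes edgeR called 0 and DESeq2 4, and 4 were higher at an unadjusted p under 0.05 (median 0.32).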
